A study of Mus musculus with 8 samples.

Results

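The 10 genes described here encode WNT ligands that are read in the heart field region of the mouse embryo: *Wnt2*, *Wnt2b*, *Wnt3*, *Wnt3a*, *Wnt4*, *Wnt5a*, *Wnt5b*, *Wnt6*, *Wnt9b* and *Wnt11*. They were chosen by name, as rows of the count table whose symbol in the GRCm38 annotation is in this list, and they are 10 of the 19 WNT ligand genes and of the 48526 identifiers in the table. The left and right heart fields of 4 single embryos, L29-3, L43-5, L46-8 and L49-3, were sequenced separately, giving 8 libraries in 4 left and right pairs. All embryos were wild-type C57bl6/J males at E8.5f, a stage of heart looping, with no other allele or treatment. The side of the body was the only designed difference between the groups. The tissue content of the libraries also varied, as given below. Each library is thus a single side of the heart field of a single embryo. The authors removed the heart before taking the heart fields. The samples contain heart precursors together with whatever adjoining tissue the microdissection left in place, and cardiomyocyte markers were read in all of them. The comparison of sides addresses which genes are asymmetric in heart precursors.

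WNT proteins are secreted glycoproteins that carry a lipid added by the acyltransferase Porcupine and are escorted to the cell surface by Wntless. They bind Frizzled receptors. With the LRP co-receptors they stabilize beta-catenin, which activates transcription together with TCF and LEF factors, whereas with the co-receptors ROR and RYK they act on cell polarity and movement. In heart precursors, signals through beta-catenin are known to maintain proliferation, and *Wnt5a* and *Wnt11*, which act mainly without beta-catenin, are known for their role in the outflow tract. *Wnt2* is known as a ligand of the posterior heart precursors that form the inflow region, and it acts with its paralogue *Wnt2b* on the foregut endoderm to specify the lung.

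The paralogues *Wnt2* and *Wnt2b* had the largest contrast of level between close relatives among these ligands, and their promoters are shown for this reason, from 250 bases before to 50 bases after the start of the RefSeq transcript on GRCm38.p6. Both genes lie on the minus strand, and the sequences read 5′ to 3′ on that strand. They were searched on both strands for AGGTGT, the core recognized by T-box factors such as TBX5, for AGATAA of GATA factors and for CTTTGA of TCF and LEF factors. Capitals mark the single match found, which reads ACACCT because it lies on the reverse strand.
*Wnt2*, chr6:18030396-18030695: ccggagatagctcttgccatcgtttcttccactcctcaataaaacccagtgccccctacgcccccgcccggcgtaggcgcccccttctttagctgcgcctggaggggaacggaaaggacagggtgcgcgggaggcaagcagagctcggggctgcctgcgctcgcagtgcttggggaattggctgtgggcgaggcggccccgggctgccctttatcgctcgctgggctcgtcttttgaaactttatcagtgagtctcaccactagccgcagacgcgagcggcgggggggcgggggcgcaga
*Wnt2b*, chr3:104961660-104961959: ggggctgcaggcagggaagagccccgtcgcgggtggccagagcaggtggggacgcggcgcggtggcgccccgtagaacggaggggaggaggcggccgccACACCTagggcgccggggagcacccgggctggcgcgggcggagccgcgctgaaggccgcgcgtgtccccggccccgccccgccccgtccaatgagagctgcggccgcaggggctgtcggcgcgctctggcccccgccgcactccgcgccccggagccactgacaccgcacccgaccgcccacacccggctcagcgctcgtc

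The *Wnt2* window held 65.7% G and C and none of these motifs. The *Wnt2b* window held 79.7% G and C, against a median of 52.7% over all 32851 promoters in the RefSeq table, and its T-box match begins 151 bases before the start. AGGTGT was found in 13.7% of all promoters, AGATAA in 11.2% and CTTTGA in 16%. Of the 10 ligand genes, 9 had an entry, with 12 promoters in all. The T-box letters were found in promoters of *Wnt2b* and *Wnt5b*, the TCF letters in those of *Wnt5b* and *Wnt11*, and the GATA letters in none of the 12.

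The authors deposited raw counts, that is, the number of reads assigned to a gene once duplicates were excluded. A library held between 1147446 and 3520753 counted reads (median 1916167), both libraries of L49-3 being the smallest. A count of 0 allows up to 3 reads, which is 0.852 to 2.60 CPM (reads scaled to a common total, here with TMM) depending on the library, for counting error only. L49-3 also stood apart in the tissue it contained. The summed CPM of 10 markers of the juxta-cardiac and inflow field, such as *Tbx5* and *Mab21l2*, was 169 on its left and 227 on its right, and 293 to 462 in the other 6 libraries. The sum of 10 cardiomyocyte markers was 459 and 1448 CPM in L49-3 and 1285 to 3690 elsewhere, and that of 10 neural tube markers was 714 and 804 CPM, above the 383 to 589 of the other libraries. The labels name the heart field, and the 10 second heart field markers, including *Isl1* and *Fgf8*, were all read and summed to 488 to 705 CPM. The 10 endothelial markers summed to 395 and 299 CPM in L49-3 and to 478 to 532 CPM elsewhere, and the 10 foregut endoderm markers to 243 and 225 CPM against 183 to 210 CPM. By their sums, both lists thus separated L49-3 from the other embryos too. The foregut genes did not move together, in normalized counts (reads divided by a size factor of the library). *Pax9* had 141 and 98.0 in L49-3 and 54.8 to 78.1 elsewhere, whereas *Hhex* had 43.4 and 29.9 against 44.4 to 84.2. The foregut sum is thus a weak measure of this tissue. Markers of surface ectoderm, cranial neural crest and paraxial mesoderm were also read in all libraries, with *Mesp2* of the paraxial list at 0. In L49-3 the neural crest sum was 388 CPM on the left and 237 on the right, and 261 to 328 elsewhere. The most reads in this list were those of *Twist1* and *Ets1*, 1859 and 1037 over all libraries. *Sox10*, *Tfap2b* and *Foxd3* had only 30, 27 and 18, so that the sum is a weak measure of neural crest. In such bulk samples, fewer cells of a type and less RNA per cell cannot be told apart.

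Only *Wnt5a*, *Wnt2* and *Wnt6* passed the filter of the study, which keeps a gene when 4 or more libraries reach a DESeq2-normalized count of 20, and which left 9744 genes for testing. The other 7 ligands, and all of the 9 WNT genes outside the list, did not. Per-library values below are these normalized counts, in which a gene's reads are divided by a size factor of the library.

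*Wnt5a*, which lies on chromosome 14 from 28504750 to 28527448, plus strand (ENSMUSG00000021994), was the ligand with the most reads, 1226 over the 8 libraries. On the left it had 156, 143, 125 and 122 normalized counts in L29-3, L43-5, L46-8 and L49-3, and on the right 132, 145, 123 and 178. The sides overlapped, and the highest library was the right side of L49-3. Left libraries averaged 136 ± 15.8 (SD, n = 4 embryos) and right libraries 145 ± 23.9 (SD, n = 4). It was the most even of the tested ligands between embryos, with embryo means of 124 to 150. Exons of *Wnt5a* share 358 bases with the antisense gene *Gm2670*, which had 27 reads, and whether the counting used the strand is not given in the sources used here.

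*Wnt2*, on the minus strand of chromosome 6 from 17988940 to 18030585 (ENSMUSG00000010797), had 933 reads. Its left libraries held 85.9, 131, 161 and 27.9 normalized counts in the same order of embryos, and its right libraries 145, 123, 60.9 and 24.9. Both sides of L49-3 were far below all the other libraries, whereas within an embryo neither side was always the higher one. In L46-8 the left was far above the right, in L29-3 the right was above the left, and in the other 2 embryos the sides were close. Left libraries averaged 101 ± 58.0 (SD, n = 4) and right libraries 88.4 ± 55.2 (SD, n = 4).

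*Wnt6*, a ligand mostly known from the surface ectoderm (chromosome 1 from 74771892 to 74785322, plus strand), had 194 reads. It had 17.0, 16.3, 30.9 and 23.2 normalized counts on the left and 11.1, 24.5, 35.5 and 19.9 on the right. The sides overlapped, the 2 libraries of L46-8 were the highest, and 4 of the 8 libraries reached 20. The summed level of 10 surface ectoderm markers, measured in the same libraries, was 335 and 404 CPM in L46-8 and 283 to 393 CPM in the other embryos. This sum rested mainly on *Cdh1*, *Epcam* and *Esrp1*, with 2429, 1374 and 871 reads. *Krt5*, *Trp63* and *Krt14* of the same list had 49, 12 and 3, so that the sum is a weak measure of this tissue.

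**Figure D1:**
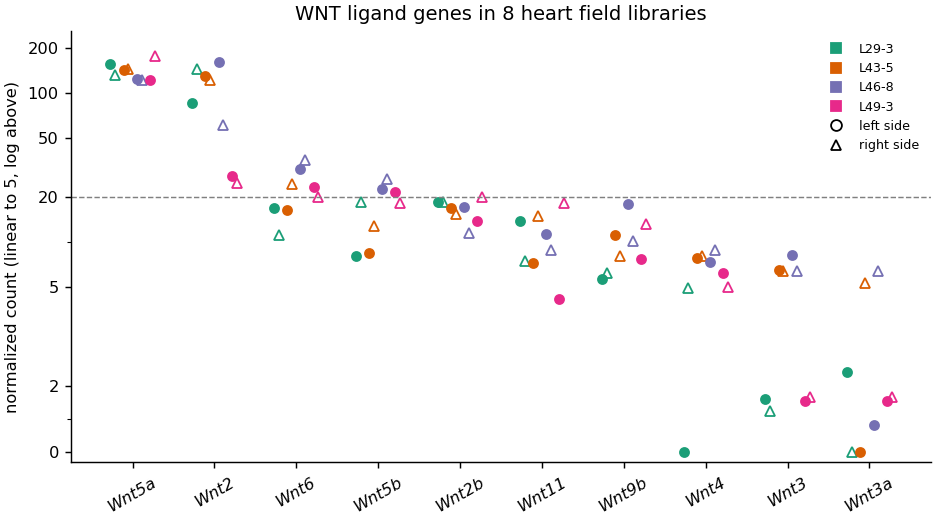
Normalized count of the 10 WNT ligand genes in each of the 8 libraries, on an axis that is linear up to 5 and logarithmic above. Colors give the embryo, filled circles the left side and open triangles the right side, and the dashed line is the filter of 20. *Wnt5a* stays between 122 and 178, *Wnt2* separates into 6 libraries of 60.9 to 161 and the 2 libraries of L49-3 at 24.9 and 27.9, *Wnt6* reaches 30.9 and 35.5 in L46-8 and *Wnt5b* 26.6, and the other ligands stay below 20.

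The remaining 7 ligands were read at levels where counting error is large. *Wnt2b* on chromosome 3 had 144 reads, with 11.4 to 19.9 normalized counts and none of the 8 libraries at 20. Its embryo means were 18.6, 16.2, 14.3 and 16.9, and L49-3 lay within the range of the others. *Wnt5b*, the paralogue of *Wnt5a*, had 136 reads and reached 20 in 3 libraries, with 8.11, 8.48, 22.8 and 21.7 normalized counts in the left and 18.6, 12.8, 26.6 and 18.3 in the right libraries, in the order of embryos used above. L46-8 and L49-3 were thus the higher embryos for *Wnt5b*.

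*Wnt11*, which shares the polarity pathway with *Wnt5a*, had 97 reads and 4.64 to 18.3 normalized counts, the lowest and the highest being the left and right side of L49-3 with 3 and 11 reads. Its exons overlap 364 bases of the pseudogene *Gm8398* on the opposite strand, which had 0 reads. *Wnt9b*, known for inducing epithelium in the kidney, had 87 reads and 5.67 to 17.9 normalized counts. *Wnt4*, required in kidney and gonad, had 54 reads, from 0 on the left of L29-3 to 15 on the right of L43-5, and its transcript contains a repeat that aligns to 1820 other genes, so that its few reads are uncertain.

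*Wnt3* and *Wnt3a*, ligands of the primitive streak and, for *Wnt3a*, of the dorsal neural tube, were at the limit of detection. *Wnt3* had 42 reads, of which 37 were in L43-5 and L46-8, with 1 or 2 reads in each library of the other embryos. *Wnt3a* had 21 reads, 3, 0, 1 and 1 on the left and 0, 10, 5 and 1 on the right in L29-3, L43-5, L46-8 and L49-3. Reads of *Wnt3a* were more frequent on the right of L43-5 and L46-8, the same libraries in which the neural tube markers were higher on the right, by log2 ratios (left over right) of -0.62 and -0.42. These markers had -0.17 in L49-3, with 1 read of *Wnt3a* on each side, and 0.17 in L29-3. The paraxial mesoderm markers had the same signs in L43-5, L46-8 and L29-3, with -0.65, -0.35 and 0.36, and 0.15 in L49-3. The part of neural or paraxial tissue in these reads was not tested.

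To compare levels between genes, TMM-normalized CPM were divided by the exon length of each gene, because a long transcript collects more reads than a short one. By this measure the order changed at the top. *Wnt2*, with 2255 exon bases, had 22.3 ± 12.5 CPM per kilobase (SD, n = 8 libraries of 4 embryos), and *Wnt5a*, with 7823 exon bases, had 9.48 ± 1.30. *Wnt6* followed with 5.38 ± 1.93 and *Wnt5b* with 3.41 ± 1.33 CPM per kilobase. *Wnt2b* had 2.08 ± 0.353, *Wnt11* 1.38 ± 0.586 and *Wnt9b* 1.17 ± 0.481. The last were *Wnt4* with 0.758 ± 0.358, *Wnt3* with 0.722 ± 0.505 and *Wnt3a* with 0.434 ± 0.455 CPM per kilobase. The paralogues thus differed in level, *Wnt2* being above *Wnt2b* and *Wnt5a* above *Wnt5b* in the mean, and *Wnt2b* lay 4 places below *Wnt2* in the order and *Wnt5b* 2 places below *Wnt5a*.

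Neighbors in this order were compared within embryos, as the difference of log2 levels per base averaged over the 2 sides. *Wnt2* was above *Wnt5a* by 0.97 ± 1.08 (SD, n = 4 embryos) and in 3 of 4 embryos, the exception being L49-3 with -0.65 (two-sided exact sign-flip permutation test, p = 0.25). *Wnt5a* was above *Wnt6* in 4 of 4 embryos by 0.83 ± 0.59, although by as little as 0.04 in the closest, and this order did not hold in all embryos with a pseudocount of 2 in place of 0.5 (mean 0.68, exact p = 0.25). *Wnt6* over *Wnt5b*, *Wnt5b* over *Wnt2b*, *Wnt2b* over *Wnt11* and *Wnt9b* over *Wnt4* also held in 4 of 4 embryos, by means of 0.66, 0.63, 0.63 and 0.70 log2 units. For each of these the exact p was 0.13, the smallest that 4 embryos can give, and 0.225 after Benjamini-Hochberg adjustment over the 9 neighboring pairs. The remaining neighbors, *Wnt11* and *Wnt9b*, *Wnt4* and *Wnt3*, and *Wnt3* and *Wnt3a*, did not keep their order in all embryos, with exact p values of 0.5, 1 and 0.25. *Wnt4* was above *Wnt3* in only 1 of 4 embryos, with a mean difference of -0.01, so that this order did not hold within embryos. The other 2 pairs held in 3 of 4. *Wnt2* and *Wnt5a* together made up 35.5% to 73.5% of the WNT level per base summed over all 19 genes, with a median of 62.1%. *Wnt2* alone accounted for 14.7% and 15.7% of that sum in the libraries of L49-3 and for 29% to 58.1% in the other libraries.

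**Figure D2:**
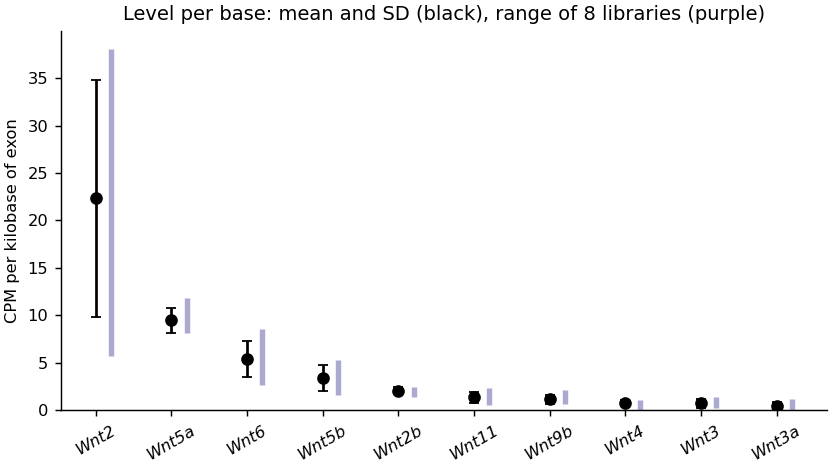
Level of each WNT ligand gene in CPM per kilobase of exon, ordered by the mean. Black points and bars are the mean and SD of 8 libraries, and the purple bars give the lowest and highest library. *Wnt2* has the highest mean and the widest range, from 5.76 to 38.0, whereas *Wnt5a* ranges from 8.10 to 11.8 CPM per kilobase.

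No ligand differed between the left and right heart fields by the threshold of the study, which asks for a change of 1.2-fold or more together with an unadjusted p no larger than 0.05. Blocked by embryo, edgeR's quasi-likelihood test gave 0 of the 3 tested ligands past it and 0 with an adjusted p under 0.05. Of all 9744 genes, 3.05% passed the threshold, 1.63% higher and 1.42% lower on the left, and 0.0103% passed the adjusted one. The log2 fold change of left over right was 0.19 (standard error 0.258, 95% interval -0.37 to 0.75) for *Wnt2* (adjusted p = 0.987). For *Wnt5a* it was -0.06 (standard error 0.126, interval -0.33 to 0.22, adjusted p = 0.988). For *Wnt6* it was -0.10 (standard error 0.268, interval -0.68 to 0.48, adjusted p = 0.993). The intervals of *Wnt2* and *Wnt6* are wide enough to include the fold of 1.2 in both directions, and that of *Wnt5a* includes it for a lower level on the left. A difference of that size was thus not excluded for *Wnt2* and *Wnt6* in either direction, nor for *Wnt5a* as a lower level on the left. An unadjusted p of 0.05 or less, which 4.36% of all genes had in edgeR, was reached by 0 of the 3 ligands, with DESeq2 and limma-voom too.

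The embryos did not share a direction. For *Wnt2* the log2 ratios of left to right, in the order L29-3, L43-5, L46-8 and L49-3, were -0.72, 0.11, 1.41 and 0.15, a spread of 0.88 (SD, n = 4) around a mean of 0.23 (two-sided exact sign-flip permutation test, p = 0.625). Of the tested genes, 2.43% had a spread of this ratio at least as wide, and the median spread was 0.254. The fitted *Wnt2* difference passed the unadjusted threshold when L29-3 was left out, at a log2 fold change of 0.58 (edgeR adjusted p = 0.999), and turned to -0.23 without L46-8. In L46-8 the juxta-cardiac and inflow markers moved with *Wnt2*, their summed level having a log2 ratio of 0.66, and the cardiomyocyte markers had 0.91, on the left over the right. In L29-3, in which *Wnt2* was lower on the left, the first list had -0.48 and the second 0.11. In L43-5 and L49-3, where *Wnt2* had 0.11 and 0.15, the first list had -0.15 and -0.43 and the second -0.50 and -1.66. The part of the amount of inflow or muscle tissue in the *Wnt2* ratio was not tested.

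For *Wnt5a* the ratios were close to 0 in L43-5 and L46-8, -0.01 and 0.03, with 0.25 in L29-3 and -0.54 in L49-3. Without L49-3 its fitted log2 fold change was 0.07 in place of -0.06. The *Wnt6* ratios were 0.59, -0.55, -0.18 and 0.20, with 2 embryos on each side of 0. Among the ligands below the filter, *Wnt2b* had 0.03, 0.14, 0.56 and -0.50, and its reads summed to 79 on the left and 65 on the right. *Wnt5b* had -1.09, -0.54, -0.20 and 0.23, the single positive ratio being that of L49-3 (exact sign-flip permutation test, p = 0.375). *Wnt11* and *Wnt9b* each had 2 embryos in each direction. For *Wnt3*, *Wnt3a*, *Wnt4* and *Wnt11* at least 1 embryo had 3 or fewer reads on a side, so that their single ratios are not given. For *Wnt11* this was the left of L49-3, with 3 reads.

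No ligand had the same direction in all 4 embryos, 0 of 10, beside 12.3% of the 14453 genes with at least 20 reads. For only 10 genes, a count of 0 is near this share and does not set the ligands apart. The sign was read from the ratio with its pseudocount, and with few reads it can come from the scaling alone, as for *Wnt3* and *Wnt3a* in L49-3 with 1 read on each side. Without L49-3, 4 ligands had ratios of the same sign in the other 3 embryos, where 24.5% of these 14453 genes did. They were *Wnt2b*, with positive, and *Wnt5b*, with negative ratios, and *Wnt3* and *Wnt4*, which had 3 or fewer reads on a side in L29-3. Without L29-3 there were 2, beside 24.9% of genes. They were *Wnt2*, with positive ratios, and *Wnt3a*, for which the sign in L49-3 is not in the reads. Over the ligands, the lowest exact p of the ratios of 4 embryos was 0.375.

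**Figure D3:**
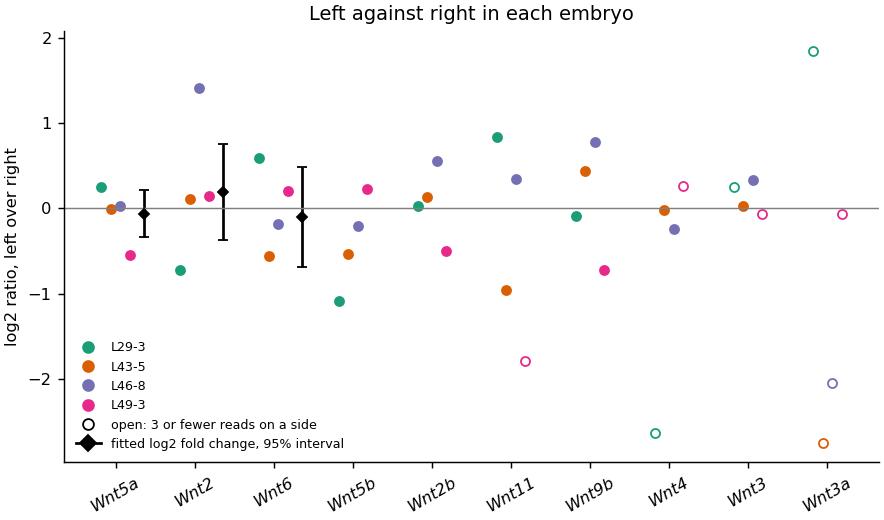
Log2 ratio of left to right in TMM-normalized CPM with a pseudocount of 0.5, for each ligand and embryo. Open circles mark pairs with 3 or fewer reads on a side, and black diamonds with bars are the fitted log2 fold change and its 95% interval for the 3 tested ligands. The points of each ligand lie on both sides of 0, and the 3 intervals include 0.

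The embryos were then compared with each other. The same fit asked whether the 4 embryos differed by more than their sides. *Wnt2* had embryo means of 115, 127 and 111 normalized counts in L29-3, L43-5 and L46-8, and 26.4 in L49-3. Its p in edgeR's quasi-likelihood test was 0.00196 before and 0.158 after adjustment, so that 0 of the 3 tested ligands were called, as compared with 0.174% of all tested genes. At an unadjusted p of 0.05 or less, which 9.99% of genes reached, *Wnt2* was the only one of the 3. The span from the lowest to the highest embryo was 2.27 log2 units for *Wnt2*, a span reached by 53 of the 9744 genes, or 0.544%, and the median over genes was 0.32. *Wnt5a* had a span of 0.23 (adjusted p = 0.848). *Wnt6* had embryo means from 14.1 in L29-3 to 33.2 in L46-8 (unadjusted p = 0.0572, adjusted p = 0.512).

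The call for *Wnt2* depended on the embryos and on the filter. The adjusted p from edgeR was 0.0308 without L29-3 and 0.00362 without L46-8, the 2 embryos whose sides differed most, in fits that called 0.469% and 2.42% of all genes. Without L49-3 the unadjusted p was 0.851, and the mean of *Wnt2* was 118 normalized counts. The adjusted p was 0.316 with DESeq2 and 0.285 with limma-voom. With no filter on low counts it was 1.08e-15 among 23873 genes, of which 2.69% were called, and over all alternatives it ranged from 1.08e-15 to 0.992.

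Genes known from the same region as *Wnt2* had their values side by side with it. *Tbx5*, a T-box factor of the inflow region, had 120, 89.97, 164 and 20.1 normalized counts on the left and 160, 139, 118 and 19.9 on the right in L29-3, L43-5, L46-8 and L49-3, and its adjusted p between embryos was 0.0201 from edgeR. *Mab21l2*, a marker of the juxta-cardiac field, had 4.64 and 3.32 in L49-3 and 16.5 to 48.0 elsewhere. Both were lowest in the libraries in which *Wnt2* was lowest, as were the summed endothelial markers. *Myh6*, the atrial myosin, had 40.3 and 234 normalized counts in L49-3 and 430 to 1548 in the others, with an adjusted p of 0.0470 between embryos. In contrast, the second heart field list was at 627 and 668 CPM in L49-3, within the 488 to 705 of the other libraries. Depth, tissue content and *Wnt2* all set L49-3 apart, and the part of each was not tested.

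**Figure D4:**
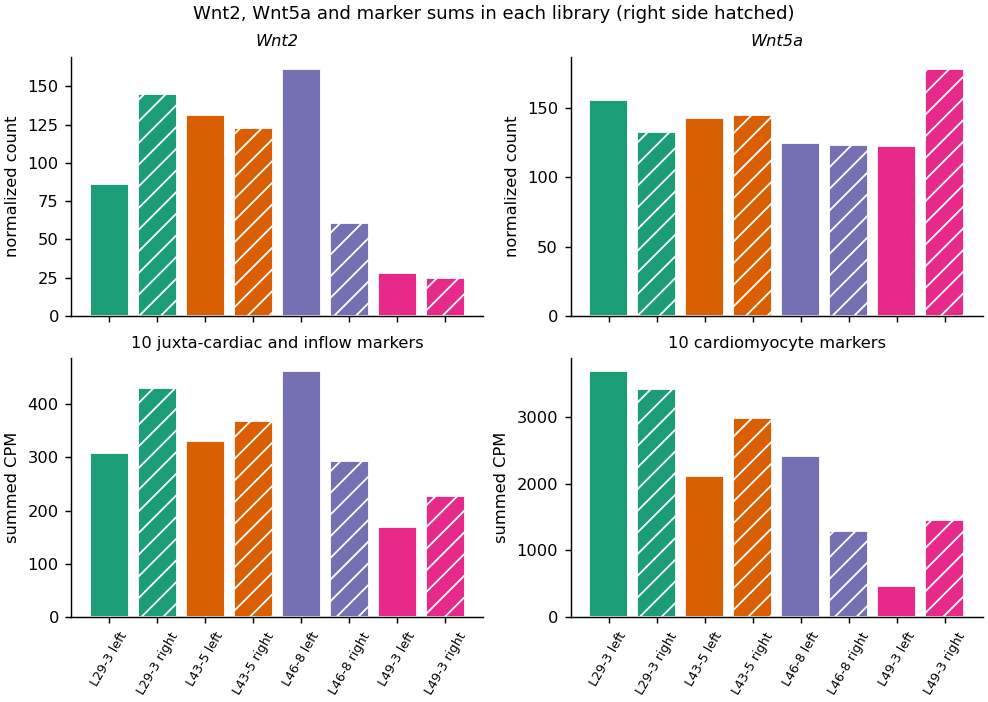
*Wnt2* and *Wnt5a* in normalized counts and the summed CPM of 10 juxta-cardiac and inflow markers and 10 cardiomyocyte markers, one bar per library from 0, hatched for the right side and colored by embryo. *Wnt2* and the juxta-cardiac and inflow sum are lowest in both libraries of L49-3, the cardiomyocyte sum is lowest on its left at 459 but at 1448 on its right, above the 1285 of the right side of L46-8, and *Wnt2* and the marker sums are higher on the left than on the right in L46-8, whereas *Wnt5a* is at 122 and 178 in L49-3.

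The genes with a pattern most like each tested ligand were taken among 6957 tested genes with a mean of at least 50 normalized counts, by Pearson correlation of log2 levels over the 8 libraries, which share 4 embryos. For *Wnt2* these were *Jcad*, *Plagl1* and *Fermt2*, with r of 0.988, 0.982 and 0.982, and of 0.953, 0.952 and 0.893 without L49-3. A correlation over 0.7 with *Wnt2* was common, at 13.9% of these genes. For *Wnt6* they were *Zcchc3*, *Zbtb11* and *Zfp512b*, with r of 0.966 to 0.931, and for *Wnt5a* they were *Spidr*, *Ago1* and *Efnb3*, with r of 0.954 to 0.944. The share of genes with a correlation over 0.7 was 2.70% for *Wnt6* and 3.09% for *Wnt5a*.

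Several of the ligand genes are neighbors in the genome, as is known for the WNT family. *Wnt3* and *Wnt9b* lie head to head on chromosome 11 with starts 24329 bases apart, and had means of 4.18 ± 2.91 and 10.01 ± 4.09 normalized counts (SD, n = 8 libraries). *Wnt3a* and *Wnt9a* lie head to head on the same chromosome, 16176 bases apart between starts, with 21 and 23 reads. *Wnt6* is followed in the same direction by *Wnt10a* on chromosome 1, with 6193 bases between the genes, and here the 2 neighbors differed, with 194 and 4 reads.

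The genes that acylate, carry, bind and transmit WNT ligands were examined as 6 lists of 86 genes, of which 62 were tested. Past the threshold of the study, 0 of the 62 were higher and 2 were lower on the left, where 1.63% and 1.42% of all tested genes were. Both had an adjusted p of 0.987 from edgeR. *Sfrp2*, a secreted antagonist that binds WNT ligands, had 34.7 ± 4.59 normalized counts (SD, n = 4) in left and 48.96 ± 12.7 (SD, n = 4) in right libraries, with 3 of 4 embryos lower on the left (log2 fold change -0.48, standard error 0.207). *Tcf7l2*, a DNA-binding partner of beta-catenin, had 99.7 ± 14.6 in left and 133 ± 44.3 in right libraries (log2 fold change -0.36, standard error 0.159, again lower in 3 of 4 embryos).

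Among genes for secretion and deacylation, 8 of 10 were tested and 0 passed, with a median log2 fold change of -0.02, beside a median of -0.0042 over all tested genes. *Wls*, the carrier Wntless, was even at 357 ± 29.2 normalized counts (SD, n = 8 libraries), whereas *Porcn*, the acyltransferase, was low at 24.1 ± 10.9. *Notum*, which removes the lipid from WNT proteins, had 20 reads in total. Of the receptors and co-receptors, 13 of 16 were tested and 0 passed, with a median of 0.07. *Fzd2* at 82.1 ± 11.3 and *Fzd7* at 54.2 ± 5.72 CPM per kilobase were the Frizzled genes of highest level per base. The receptors of the polarity branch were also read, *Ror2* at 24.9 ± 1.30 and *Ryk* at 27.3 ± 3.33 CPM per kilobase.

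The extracellular modulators had 9 of 21 genes tested and 1 past the threshold, *Sfrp2*, with a median of 0.15. The intracellular genes of the beta-catenin branch had 14 of 15 tested and 1 past it, *Tcf7l2*, with a median of -0.01. Of the targets and feedback genes of beta-catenin, 9 of 12 were tested and 0 passed. *Axin2*, a common readout of beta-catenin signaling, had 122 ± 18.9 normalized counts (SD, n = 8), with 0.22 as its log2 fold change (standard error 0.134, edgeR adjusted p = 0.987). The planar cell polarity list had 9 of 12 tested and 0 past the threshold, with a median of -0.09. The targets had a median of 0.07, and none of the 62 listed genes passed the adjusted threshold in edgeR, whether between sides or between embryos.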

How the data were processed

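RNA of the left and right heart fields of 4 embryos was sequenced in 8 libraries, from 15 ng of total RNA each. The authors aligned the reads to GRCm38 with HISAT2, excluded duplicates and deposited raw counts per gene from featureCounts for 48526 identifiers; the versions of both tools and the strand setting are not given in the sources used here. Duplicates removed before counting are no longer visible in the counts.

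Symbols and exon lengths were taken from GENCODE vM21, in which 48144 identifiers had a symbol. Counts were tested with edgeR 4.0.16 in R 4.3.3 (TMM normalization, quasi-likelihood test, embryo as a block, Benjamini-Hochberg adjustment) on the 9744 genes that reached a DESeq2-normalized count of 20 in 4 or more libraries, and the method was tested on simulated data. Libraries of an embryo are paired, being from a single animal. Their deviations from the side means correlated at 0.165, 0.19, -0.02 and 0.437 in L29-3, L43-5, L46-8 and L49-3. No 2 libraries agreed within sampling noise (smallest chi-square per degree of freedom 1.93). Ratios in single embryos used a pseudocount of 0.5 CPM. DESeq2 1.42.0, limma 3.58.1, other scalings, filters, pseudocounts and lengths, fits with no replicate block and leaving out each embryo were the alternatives.

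All 10 ligands are named, and for the 3 tested ones the 3 genes outside the family with the highest correlation. From the pathway lists, genes past the threshold are named; the other listed genes shown were chosen after their values were seen. The members and the lists of pathway genes and tissue markers were chosen with earlier results of these data known. Promoters are from RefSeq.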

Additional observations from a re-analysis of the deposited data

Results flagged for a closer look

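Of 40 groups of 4 values examined for the 10 ligands (normalized counts of each side, log2 ratios and embryo means), 1 held a value far from the others. The embryo mean of *Wnt2* was 26.4 normalized counts in L49-3 and 111 to 127 in the other embryos, a gap of 0.842 of the whole range. Chance flags about 1 in 20 such groups, and the groups of a gene are not independent of each other. The libraries of L49-3 had the lowest totals, and 18 and 15 reads of *Wnt2*.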

How the results depend on the processing

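With no replicate block, in which sides are not paired by embryo, 0 ligands passed the threshold with edgeR or limma-voom, as in the paired fit, and 2 pathway genes did with edgeR. No call of a ligand between sides changed with the scaling, the filter or the tool. Between embryos, 1 ligand, *Wnt2*, had an adjusted p under 0.05 with no filter, and 0 with the other scalings, filter and tools. Over all genes, 297 passed the threshold between sides in edgeR, 56 in DESeq2 and 687 with no filter, and 17, 46 and 641 had an adjusted p under 0.05 between embryos, 4 with limma-voom and 9 with the filter of 10 counts. *Wnt6* was not tested without L43-5 or with at least 10 counts in every library.

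With each embryo left out in turn, 0 to 1 ligands passed the threshold between sides, 0 to 1 had an adjusted p under 0.05 between embryos, 0 to 4 had the same direction in every embryo, and 3 to 6 pathway genes passed, 6 without L29-3. Fitted log2 fold changes ranged from -0.23 to 0.58 for *Wnt2* and from -0.16 to 0.0696 for *Wnt5a*. Mean log2 ratios over the embryos, with the pseudocount, crossed 0 for 7 ligands: *Wnt2* (-0.16 to 0.55), *Wnt2b* (-0.11 to 0.24), *Wnt4* (-0.96 to 0.0025), *Wnt5a* (-0.17 to 0.0916), *Wnt6* (-0.18 to 0.21), *Wnt9b* (-0.12 to 0.38) and *Wnt11* (-0.80 to 0.0732). The cause of these changes was not tested. In the order of levels, 8 to 9 of the 9 neighboring pairs kept their order, 8 without L49-3; within embryos, *Wnt5a* over *Wnt6* no longer held in 4 of 4 with a pseudocount of 2 (exact p = 0.25). Depth limits the 7 ligands below the filter, with 21 to 144 reads each in all libraries.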

Other observations

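*Wnt8a*, a ligand of the early posterior embryo that is outside the 10 genes, was chosen here after its values were seen. It had 27, 37, 2 and 17 reads on the left and 7, 12, 1 and 7 on the right in L29-3, L43-5, L46-8 and L49-3, with more on the left in 4 of 4 embryos (p = 0.13 in an exact sign-flip permutation test, the smallest that 4 embryos can give). In L46-8 the sign rested on 2 against 1 reads and is uncertain, and the 4 of 4 and its p depend on it. *Wnt8a* reached a normalized count of 20 in 3 libraries and was not tested in the fit across genes. Of the 14453 genes with at least 20 reads, 12.3% had the same direction in all 4 embryos. Its embryo means were 15.3, 15.3, 1.45 and 19.0 normalized counts.

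*Wnt1*, a ligand of the dorsal neural tube, had 4, 0, 2 and 8 reads on the left and 0, 11, 12 and 2 on the right. As with *Wnt3a*, most reads were on the right in L43-5 and L46-8.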
